A study of Mus musculus with 9 samples.

Results

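Expression of 32 glycolysis and hypoxia response genes was followed across 9 mouse mammary tumour samples. The list had 35 entries, and a gene counted as measured where a feature of the array was annotated with its symbol alone. Where a gene had several such features, the one with the highest mean over the 9 arrays was used. The 32 genes comprised 18 of 21 glycolysis genes and all 14 hypoxia regulators and targets, out of 19938 genes on the arrays. Gpi1, Gapdh and Eno1 are not analysed here.

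The samples were snap-frozen tumours of the transplantable mammary tumour cell lines NDL, Met1 and SSM2, with 3 samples per line, each on 1 Affymetrix Mouse Gene 1.0 ST array. All lines had been grown as bilateral transplants in uncleared fat pads of female FVB/NJ hosts, which were 6 to 8 weeks old. Tumours were taken once they measured 5 to 10 mm across. No group was untreated or normal tissue. By way of background, the NDL tumours express an activated form of ErbB2 (neu) and Met1 goes back to the polyoma middle T antigen model, with both transgenes under the mouse mammary tumour virus promoter. SSM2 is likewise a transplantable line from a mouse mammary tumour. Each group is 1 cell line, and host cells are part of every sample. The labels do not say that the samples of a line came from separate animals or tumours, so each p measures only the spread between samples.

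Glycolysis breaks glucose down to pyruvate in the cytosol, and lactate dehydrogenase turns pyruvate into lactate. In cells short of oxygen the alpha subunits of hypoxia-inducible factor (HIF) escape hydroxylation by the prolyl hydroxylases Egln1, Egln2 and Egln3 and breakdown through the ubiquitin ligase component Vhl, and they then switch on genes for glucose uptake, glycolysis, angiogenesis and collagen hydroxylation. Many of these targets, Egln3 among them, are read as hypoxia markers in solid tumours, although oncogenic signalling is known to raise several of them as well.

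Values are log2 signals summarised by RMA, so a difference of 1 is a change of 2-fold in signal. No line mean of any of the 32 genes lay under the 25th percentile of all gene means (4.91), the lowest being Eno2 in SSM2 (5.51). The upper quartile of gene signal was 7.84 to 8.09 on NDL arrays, 8.02 to 8.05 on Met1 arrays and 7.98 to 8.08 on SSM2 arrays, and NDL replicates 1 and 2 were lowest (7.85 and 7.84). The number of arrays limits the precision. Genes were called different at an adjusted p under 0.05 in limma, adjusted by Benjamini-Hochberg over all 19938 genes. Across the 3 lines, 13 of the 32 genes passed the F-test (7 of 18 glycolysis genes and 6 of 14 hypoxia genes), against 25.1% of all genes.

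The DNA before the transcription start is shown for 4 genes whose differences carry most of what follows: Aldoc and Egln3, with their highest signal in NDL, P4ha2, with its lowest signal there, and Eno2, which differed between all lines. Each sequence is the 250 bases before a RefSeq start (build GRCm38.p6), written from 5′ to 3′ on the strand of the gene. Capitals mark the core letters of the HIF response element, ACGTG or GCGTG, on either strand (CACGT or CACGC when read on the strand shown), and a palindrome such as CACGTG counts on both strands.
Aldoc (chr11:78322823-78323072, plus strand): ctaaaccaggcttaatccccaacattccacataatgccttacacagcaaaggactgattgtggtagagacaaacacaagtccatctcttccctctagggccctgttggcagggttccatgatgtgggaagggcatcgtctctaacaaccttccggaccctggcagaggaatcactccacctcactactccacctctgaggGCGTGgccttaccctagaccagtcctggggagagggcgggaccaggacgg
Eno2 (chr6:124769674-124769923, minus strand): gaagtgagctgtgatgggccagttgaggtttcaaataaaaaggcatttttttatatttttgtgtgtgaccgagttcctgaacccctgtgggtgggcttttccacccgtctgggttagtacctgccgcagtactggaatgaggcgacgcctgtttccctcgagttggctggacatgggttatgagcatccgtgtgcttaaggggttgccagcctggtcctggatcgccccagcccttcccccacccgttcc
Egln3 (chr12:54203875-54204124, minus strand): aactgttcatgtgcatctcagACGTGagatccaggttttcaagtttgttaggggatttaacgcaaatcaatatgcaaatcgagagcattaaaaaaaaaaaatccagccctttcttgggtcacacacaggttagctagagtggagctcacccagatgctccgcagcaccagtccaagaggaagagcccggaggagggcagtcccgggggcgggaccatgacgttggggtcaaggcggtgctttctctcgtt
P4ha2 (chr11:54100674-54100923, plus strand): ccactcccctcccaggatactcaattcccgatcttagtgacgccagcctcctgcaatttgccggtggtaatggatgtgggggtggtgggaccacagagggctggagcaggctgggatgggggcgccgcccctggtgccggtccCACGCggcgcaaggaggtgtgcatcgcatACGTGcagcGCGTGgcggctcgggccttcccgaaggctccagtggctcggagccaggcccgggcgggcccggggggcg

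The core letters were present 3 times before the start of P4ha2, and 1 time each before Egln3 and the start of Aldoc shown. No match was found before Eno2. RefSeq starts were at hand for 30 of the 32 genes, and 27 of them (90%) had the letters before at least 1 start, against 41.5% of 27025 genes. Counted by start, 34 of 43 (79.1%) had them, against 38.6% of all 32851 starts. The median GC content of these windows was 61.6% in the 43 and 52.4% in all, and the letters contain a CG pair. The part of base composition in these shares was not tested. The genes were listed for glycolysis and the hypoxia response, and many are HIF targets, so the shares are not independent of that choice. A match of the letters does not show that HIF binds there.

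Among glycolysis genes, NDL tumours had the highest signal of Aldoc, an aldolase isoform best known from brain, and Met1 tumours had the highest and SSM2 tumours the lowest signal of Eno2, the neuronal enolase isoform. Pfkm, the muscle isoform of phosphofructokinase, was lower in SSM2 than in both other lines. The common enzymes Pfkl and Aldoa were higher in NDL than in SSM2, and Tpi1 and Pkm were higher in Met1 than in SSM2, while Hk1, Pgk1, Pgam1 and Ldha passed in no comparison on the features used, with another answer from a further feature of Hk1.

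**Figure D1:**
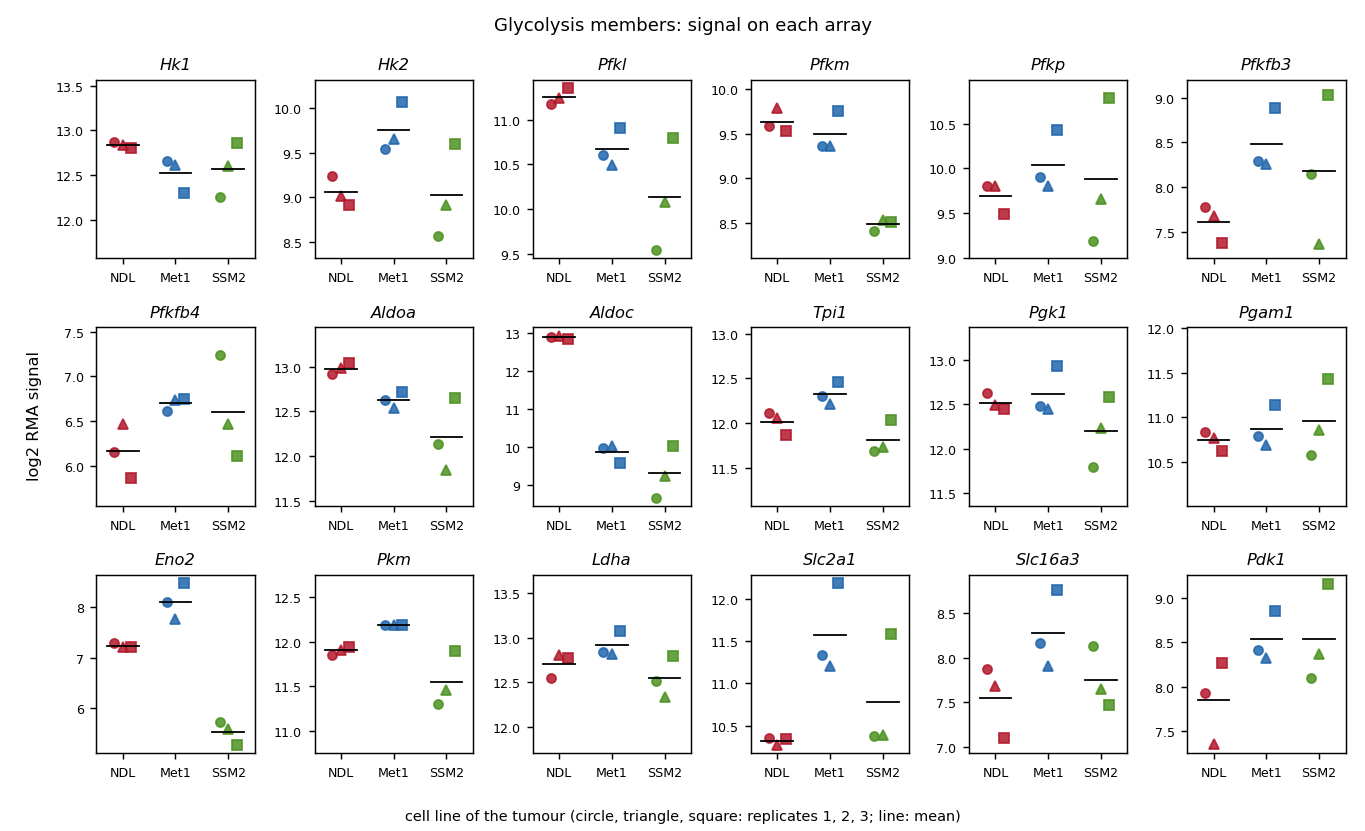
Log2 RMA signal (vertical axis) of the 18 measured glycolysis genes on each array, by cell line (horizontal axis). Circles, triangles and squares are replicates 1, 2 and 3, and the line is the mean of 3 arrays. Aldoc stands apart in NDL (12.90) and Eno2 in all 3 lines (7.24, 8.12 and 5.51).

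Glucose enters through Slc2a1, the glucose transporter GLUT1, and is trapped by hexokinases. Slc2a1 averaged 10.32 ± 0.05 in NDL, 11.57 ± 0.53 in Met1 and 10.78 ± 0.69 in SSM2 (SD, n = 3 each). NDL signal was 2.38-fold lower than that of Met1 (log2 difference -1.25, SE 0.36, adjusted p = 0.042 in limma), although Slc2a1 did not pass the F-test. The call ended without any 1 of the 6 arrays of those lines (adjusted p from 0.0576 to 0.134). Hk2, the inducible hexokinase, averaged 9.05 ± 0.17 in NDL, 9.75 ± 0.27 in Met1 and 9.02 ± 0.52 in SSM2 and passed in no comparison. Without SSM2 replicate 3 it passed between NDL and Met1 (-0.70, adjusted p = 0.0261) and between Met1 and SSM2 (1.01, adjusted p = 0.0137). NDL against Met1 also passed with only the arrays of those 2 lines (adjusted p = 0.0316). Met1 against SSM2 also passed with array weights (adjusted p = 0.035) and without the third arrays of Met1 and SSM2 (adjusted p = 0.0301).

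Hk1, the widely expressed hexokinase, had 2 features that gave different answers. On the one with the higher mean it averaged 12.84 in NDL, 12.52 in Met1 and 12.57 in SSM2, and no comparison passed. The features nearest to that one in number belong to genes of chromosome 14 in 19 of 20 cases, whereas Hk1 lies on chromosome 10. The other feature, whose 20 neighbours all belong to genes of chromosome 10, averaged 10.16 in NDL, 9.68 in Met1 and 9.16 in SSM2. With it, Hk1 was higher in NDL than in SSM2 (log2 difference 1.00, adjusted p = 0.0288). The features used for Pgk1, Pgam1, Pkm and Bnip3 also lay among genes of another chromosome, and their calls did not change when the feature placed with the gene was used instead. These 5 genes may share probes with near-identical copies, so their values are uncertain.

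Phosphofructokinase commits glucose to glycolysis and is built from liver, muscle and platelet isoforms. Pfkm stood at 9.59, 9.79 and 9.52 in the NDL arrays, at 9.36, 9.36 and 9.76 in Met1 and at 8.41, 8.54 and 8.51 in SSM2. All SSM2 arrays lay below all others, and NDL and Met1 overlapped. Pfkm was 2.21-fold higher in NDL than in SSM2 (log2 difference 1.15, SE 0.13, adjusted p = 0.000862) and 2.01-fold higher in Met1 than in SSM2 (1.01, SE 0.13, adjusted p = 0.00209), and the calls held in all 20 alternative fits. Pfkl, the liver isoform, averaged 11.26 ± 0.09 in NDL, 10.67 ± 0.21 in Met1 and 10.14 ± 0.63 in SSM2, and was higher in NDL than in SSM2 (1.12, adjusted p = 0.0284). That call ended in 7 of the 20 alternatives, among them those without NDL replicate 1, NDL replicate 2, Met1 replicate 1, SSM2 replicate 1 or SSM2 replicate 2 (adjusted p from 0.0514 to 0.0792). Between NDL and Met1 the Pfkl difference of 0.59 did not pass (adjusted p = 0.184). It passed with only the arrays of those 2 lines (adjusted p = 0.0263) and without SSM2 replicate 3 (adjusted p = 0.0457). Without the third arrays of Met1 and SSM2 it also passed (0.71, adjusted p = 0.0443). Pfkp, the platelet isoform, differed by between -0.35 and 0.17 and passed nowhere. Pfkfb3 and Pfkfb4, which make the allosteric activator of phosphofructokinase, passed in none of the 3 comparisons either. The largest of their differences was Pfkfb3 in NDL against Met1 (-0.88, adjusted p = 0.149), which passed without SSM2 replicate 3 (adjusted p = 0.0444). It also passed with only the NDL and Met1 arrays fitted (adjusted p = 0.0286).

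Aldolases split the phosphorylated sugar into trioses. Aldoc stood at 12.91, 12.93 and 12.85 in the NDL arrays, at 9.96, 10.03 and 9.58 in Met1 and at 8.65, 9.24 and 10.01 in SSM2. The NDL arrays lay close together and above all others, while Met1 and SSM2 overlapped. Aldoc was 8.21-fold higher in NDL than in Met1 (log2 difference 3.04, SE 0.30, adjusted p = 0.000334). Over SSM2 the excess was 12.1-fold (3.59, SE 0.30, adjusted p = 0.000151), and both calls held in all 20 alternatives. Of the 32 genes, it had the largest difference of any in each of the 2 comparisons with NDL. Aldoa, the aldolase isoform that most tissues use, averaged 12.98 ± 0.06 in NDL, 12.63 ± 0.09 in Met1 and 12.21 ± 0.41 in SSM2. It was higher in NDL than in SSM2 (0.77, SE 0.19, adjusted p = 0.0254), but not without NDL replicate 1, NDL replicate 2, SSM2 replicate 1 or SSM2 replicate 2 (adjusted p from 0.0598 to 0.0723). Between NDL and Met1 the Aldoa difference of 0.35 did not pass (adjusted p = 0.231). With only the arrays of those 2 lines it passed (adjusted p = 0.0479).

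Further down the pathway, Eno2 differed between every pair of lines. It stood at 7.29, 7.21 and 7.21 in NDL, at 8.10, 7.76 and 8.49 in Met1 and at 5.70, 5.57 and 5.25 in SSM2, with no overlap between any lines. In NDL, Eno2 was 1.84-fold lower than in Met1 (log2 difference -0.88, SE 0.19, adjusted p = 0.0134, and 0.0575 with array weights). It was 3.32-fold higher in NDL than in SSM2 (1.73, SE 0.19, adjusted p = 0.000617) and 6.09-fold higher in Met1 than in SSM2 (2.61, SE 0.19, adjusted p = 0.000144). Among the 32 genes it was the only one to pass in all 3 comparisons. Tpi1, the triose isomerase, was higher in Met1 than in SSM2 (12.32 ± 0.12 against 11.81 ± 0.19; 0.51, adjusted p = 0.0369), and so was the pyruvate kinase Pkm (12.19 against 11.56; 0.63, adjusted p = 0.0243). Both calls were close to the threshold: that of Tpi1 ended in 12 and that of Pkm in 8 of 20 alternatives, in each case without any 1 Met1 array or without SSM2 replicates 1 or 2, and for Tpi1 also without NDL replicate 1 (adjusted p up to 0.128 and 0.0852). Pgk1 and Pgam1, which act between them, differed by between -0.21 and 0.41 and passed nowhere.

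Ldha, which makes lactate, stood at 12.54, 12.80 and 12.77 in NDL, at 12.84, 12.82 and 13.07 in Met1 and at 12.52, 12.33 and 12.80 in SSM2. The Met1 arrays lay just above all others, and those of NDL and SSM2 overlapped. No comparison passed: the differences were -0.21 for NDL against Met1 (95% interval -0.54 to 0.12), 0.16 for NDL against SSM2 (-0.18 to 0.49) and 0.36 for Met1 against SSM2 (0.03 to 0.70, adjusted p = 0.167). Slc16a3, which exports lactate, averaged 7.55 ± 0.40 in NDL, 8.28 ± 0.43 in Met1 and 7.75 ± 0.34 in SSM2 and did not pass. Pdk1, a pyruvate dehydrogenase kinase, averaged 7.85 ± 0.46 in NDL, 8.53 ± 0.28 in Met1 and 8.54 ± 0.55 in SSM2 and did not pass.

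Counted together, glycolysis genes passed in 3 of 18 cases between NDL and Met1 (1 higher, 2 lower in NDL), where 19.1% of all genes passed (8.88% higher and 10.2% lower). Between NDL and SSM2 it was 5 of 18, all higher in NDL, where 16.9% of all genes passed (9.35% higher and 7.52% lower). Between Met1 and SSM2 it was 4 of 18, all higher in Met1, where 11.8% of all genes passed (7.1% higher and 4.71% lower). The median difference of the 18 genes was -0.30, 0.18 and 0.46 in the 3 comparisons, beside 0.06, 0.09 and 0.04 over all genes. Single arrays moved these counts. Without SSM2 replicate 3, 9 glycolysis genes were higher in Met1 than in SSM2, adding Hk2, Pfkl, Aldoa, Aldoc and Slc2a1 to the 4, and 4 were lower in NDL than in Met1. Without SSM2 replicate 1 or 2, or any 1 Met1 array, 2 were higher in Met1 than in SSM2. All genes called between Met1 and SSM2 numbered 2356 with all arrays and 2466 without SSM2 replicate 3. They numbered 1360 to 1607 without 1 Met1 array, and 2248 and 1701 without SSM2 replicates 1 and 2. Between NDL and Met1, 3814 genes were called with all arrays and 4250 without SSM2 replicate 3.

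Hypoxia regulators and targets went in different directions between the same lines. In NDL tumours the prolyl hydroxylase Egln2 was highest and P4ha2, a subunit of collagen prolyl hydroxylase, was lowest of the 3 lines. Vegfa, the angiogenic growth factor, and P4ha1 were lower in NDL than in Met1, while Egln3 was higher in NDL than in SSM2. Ndrg1, a hypoxia- and differentiation-linked gene, was highest in SSM2.

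**Figure D2:**
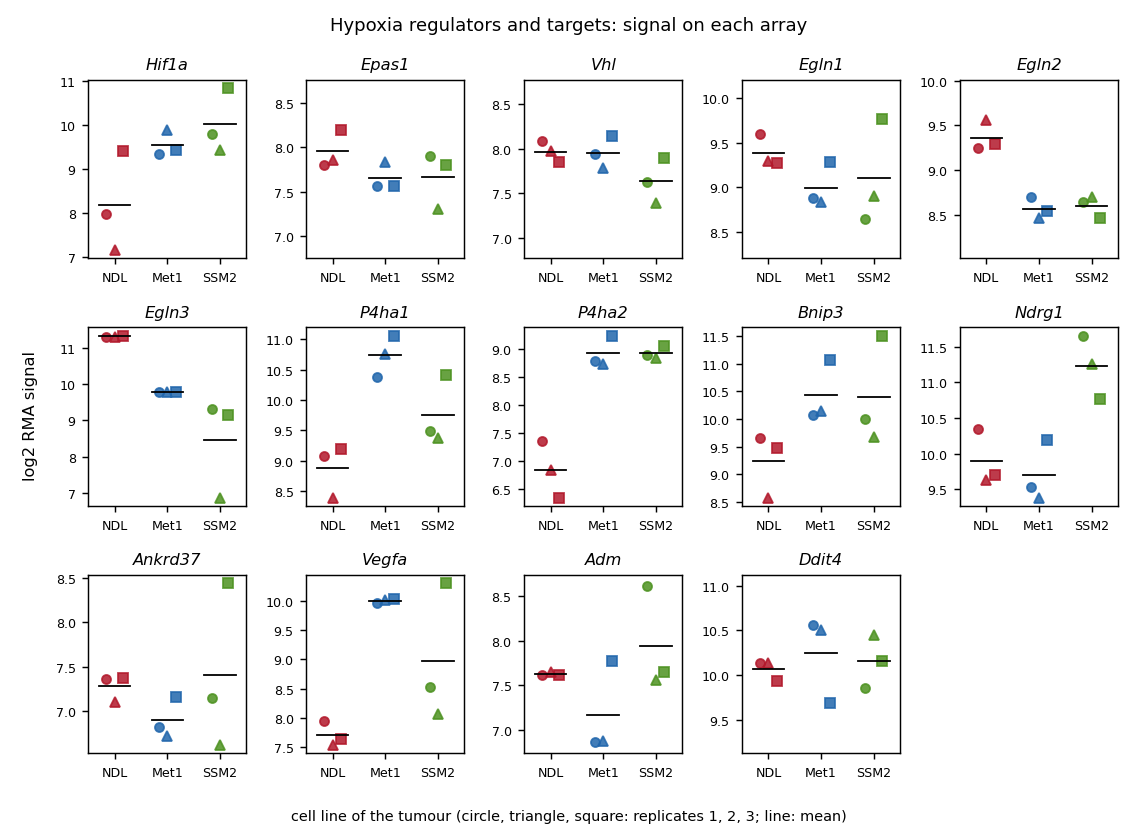
Log2 RMA signal (vertical axis) of the 6 hypoxia regulators and 8 targets on each array, by cell line (horizontal axis). Circles, triangles and squares are replicates 1, 2 and 3, and the line is the mean of 3 arrays. Egln3 is highest in NDL (11.32) and P4ha2 lowest there (6.84). The SSM2 arrays spread widely for Egln3 and Vegfa, and the NDL arrays for Hif1a.

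Among the regulators, Hif1a, an oxygen-sensitive alpha subunit of HIF, stood at 7.97, 7.15 and 9.41 in NDL, at 9.34, 9.89 and 9.43 in Met1 and at 9.79, 9.43 and 10.84 in SSM2. NDL replicate 3 lay well above the other NDL arrays and in the range of Met1. The differences were -1.38 for NDL against Met1 (95% interval -2.66 to -0.10, adjusted p = 0.127) and -1.84 for NDL against SSM2 (-3.12 to -0.57, adjusted p = 0.0563), and neither passed. Both passed without NDL replicate 3 (adjusted p = 0.0125 and 0.00576). The difference from Met1 also passed with array weights (adjusted p = 0.0443), and that from SSM2 also with the replicate number as a block (adjusted p = 0.043), after a filter on signal (adjusted p = 0.0427) and with equal medians (adjusted p = 0.0476). Its mRNA level does not measure the protein, which is regulated mainly by breakdown. Epas1, which encodes the related subunit HIF-2 alpha, Vhl and Egln1 passed in no comparison, with differences between -0.11 and 0.39.

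Egln2 stood at 9.24, 9.56 and 9.29 in NDL, at 8.70, 8.46 and 8.54 in Met1 and at 8.64, 8.70 and 8.46 in SSM2. All NDL arrays lay above all others, and Met1 and SSM2 overlapped. Egln2 was 1.73-fold higher in NDL than in Met1 (log2 difference 0.79, SE 0.12, adjusted p = 0.0031). Over SSM2 it was 1.70-fold higher (0.76, SE 0.12, adjusted p = 0.00475). Egln3, whose promoter letters are given above, stood at 11.31, 11.31 and 11.34 in NDL, at 9.79, 9.79 and 9.78 in Met1 and at 9.33, 6.87 and 9.16 in SSM2. The 3 lines did not overlap, and SSM2 replicate 2 lay far below the other SSM2 arrays. Egln3 was 7.31-fold higher in NDL than in SSM2 (2.87, SE 0.55, adjusted p = 0.00983), or 2.08 on the log2 scale without SSM2 replicate 2. Between NDL and Met1 the difference of 1.54 did not pass (adjusted p = 0.0915). It passed without SSM2 replicate 2 (adjusted p = 0.000135) and with only the arrays of those 2 lines (adjusted p = 0.000209). Between Met1 and SSM2 the difference was 1.33 (adjusted p = 0.185), and 0.54 without SSM2 replicate 2 (adjusted p = 0.0181).

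Among the targets, the collagen prolyl hydroxylase subunits had lower signal in NDL. P4ha2 stood at 7.35, 6.83 and 6.34 in NDL, at 8.79, 8.74 and 9.24 in Met1 and at 8.89, 8.84 and 9.05 in SSM2. Every NDL array lay below every other array. Its NDL signal was 4.25-fold lower than in Met1 (log2 difference -2.09, SE 0.25, adjusted p = 0.000797). Set against SSM2 it was 4.26-fold lower (-2.09, SE 0.25, adjusted p = 0.000911), and both calls held in all 20 alternatives. P4ha1 averaged 8.89 ± 0.43 in NDL, 10.73 ± 0.34 in Met1 and 9.76 ± 0.57 in SSM2, and was 3.59-fold lower in NDL than in Met1 (-1.84, SE 0.33, adjusted p = 0.00541). It did not pass between NDL and SSM2 (-0.87, adjusted p = 0.102) or between Met1 and SSM2 (0.97, adjusted p = 0.0996). Both passed with the replicate number as a block (adjusted p = 0.0482 and 0.0419). Met1 against SSM2 also passed with array weights (adjusted p = 0.0282) and without SSM2 replicate 3 (1.30, adjusted p = 0.0204).

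Vegfa stood at 7.95, 7.54 and 7.65 in NDL, at 9.96, 10.02 and 10.02 in Met1 and at 8.53, 8.07 and 10.30 in SSM2. NDL lay below both other lines, and SSM2 replicate 3 lay above every Met1 array while the other SSM2 arrays lay below them. Vegfa in NDL was 4.89-fold lower than in Met1 (log2 difference -2.29, SE 0.48, adjusted p = 0.0122). Against SSM2 the difference was -1.26 (adjusted p = 0.108), and -1.70 without SSM2 replicate 2 (adjusted p = 0.0499). Between Met1 and SSM2 it was 1.03 (adjusted p = 0.244), and 1.70 without SSM2 replicate 3 (adjusted p = 0.000965).

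Ndrg1 stood at 10.35, 9.63 and 9.69 in NDL, at 9.52, 9.38 and 10.19 in Met1 and at 11.66, 11.25 and 10.77 in SSM2. All SSM2 arrays lay above all others. In NDL, Ndrg1 was 2.52-fold lower than in SSM2 (log2 difference -1.34, SE 0.30, adjusted p = 0.0201) and 2.88-fold lower in Met1 than in SSM2 (-1.53, SE 0.30, adjusted p = 0.0136). The first call ended without NDL replicate 2 or SSM2 replicates 1 or 2 (adjusted p from 0.0587 to 0.0714) and the second without Met1 replicate 1 or 2 (adjusted p = 0.0601 and 0.0577). The mitophagy receptor Bnip3 averaged 9.23 ± 0.58 in NDL, 10.43 ± 0.56 in Met1 and 10.39 ± 0.98 in SSM2 and did not pass, except between NDL and Met1 without SSM2 replicate 3 (-1.20, adjusted p = 0.0491). Neither did Ankrd37, the vasodilator peptide gene Adm or the mTOR inhibitor Ddit4, whose differences lay between -0.77 and 0.45.

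Hypoxia genes thus passed in 4 of 14 cases between NDL and Met1 (1 higher, 3 lower in NDL), beside 19.1% of all genes. Between NDL and SSM2 it was 4 of 14 (2 higher, 2 lower), beside 16.9%, and between Met1 and SSM2 1 of 14 (lower in Met1), beside 11.8%. The median difference was 0.10, -0.22 and -0.01, against 0.06, 0.09 and 0.04 over all genes. Taken apart, the median was 0.34, 0.31 and -0.02 over the 6 regulators and -0.69, -1.01 and 0.02 over the 8 targets. Arrays of the compared lines did not overlap for 6, 8 and 2 of the 14 hypoxia genes and for 14, 6 and 5 of the 18 glycolysis genes, where 38.2%, 31.6% and 31.7% of all genes did not.

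**Figure D3:**
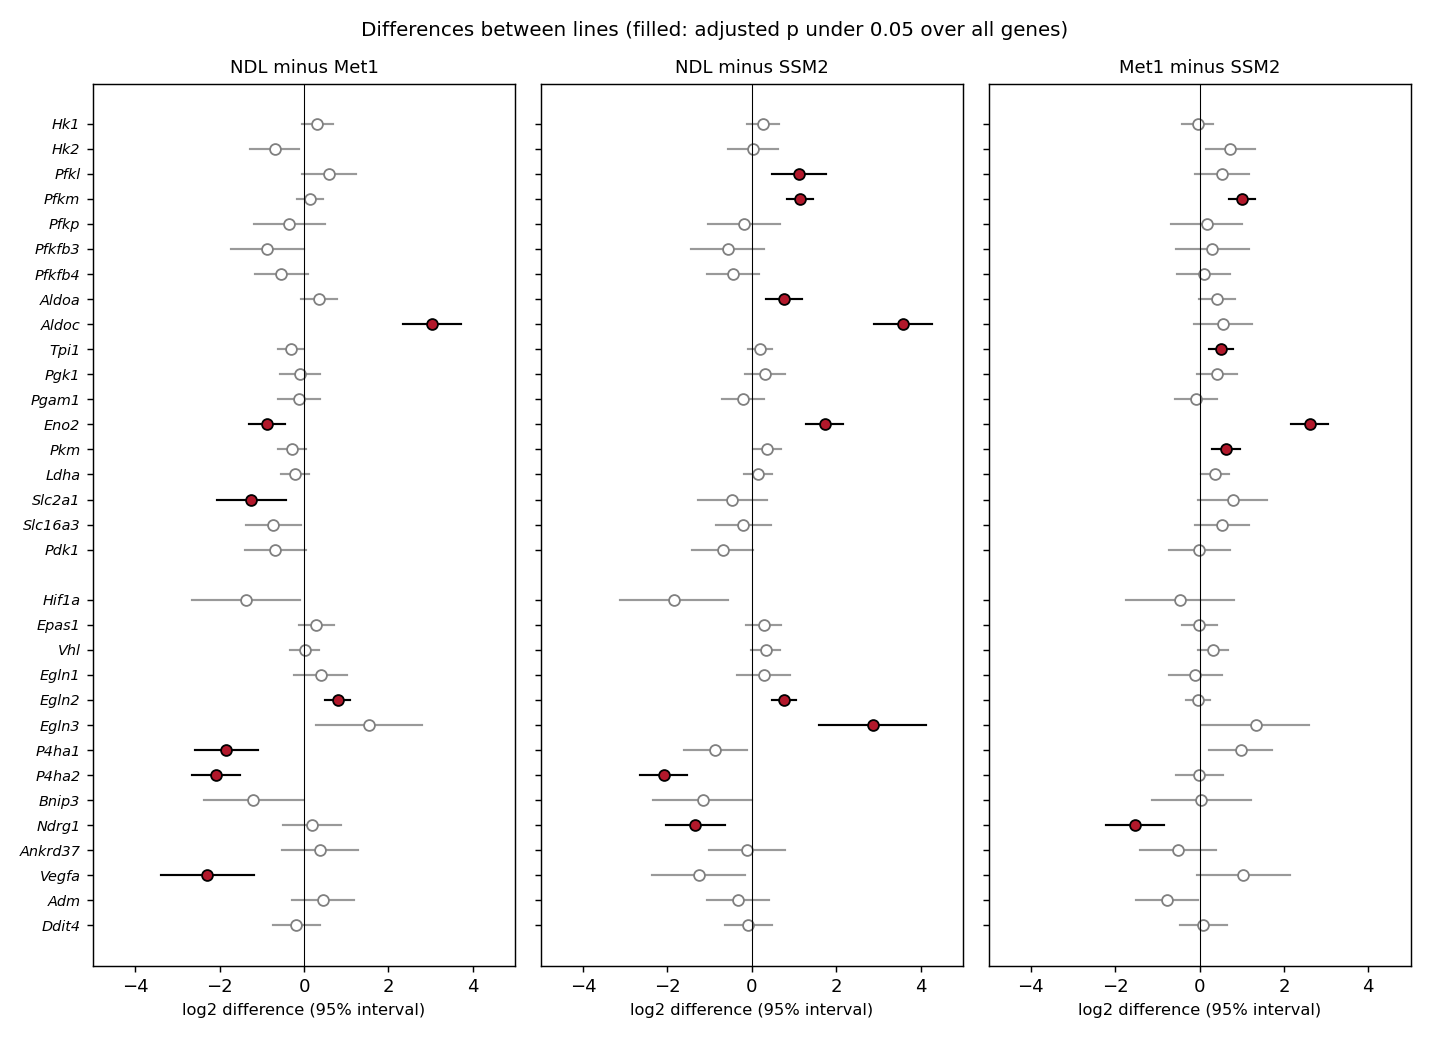
Log2 differences (horizontal axis, with 95% intervals from limma) for the 32 genes (vertical axis) in NDL minus Met1, NDL minus SSM2 and Met1 minus SSM2. Filled points passed an adjusted p of 0.05 over all genes: 7, 9 and 5 of 32, beside 19.1%, 16.9% and 11.8% of all genes.

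Of the 32 genes, 7 passed between NDL and Met1, 9 between NDL and SSM2 and 5 between Met1 and SSM2. In the same order these were 21.9%, 28.1% and 15.6% of the 32, beside 19.1%, 16.9% and 11.8% of all genes. These comparisons share arrays, so their counts are not independent. Aldoc and Egln2 were highest in NDL in both of its comparisons and P4ha2 lowest, beside 5.13% and 3.59% of all genes. Eno2 was highest in Met1 (4.09% of all genes), and none was lowest there (2.18% of all genes). Pfkm and Eno2 were lowest in SSM2 (2.26%), and Ndrg1 was highest there (1.91%).

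Within lines, single arrays were high for many of the genes together. Among Met1 arrays, replicate 3 was highest for 25 of the 32 genes (16 of 18 glycolysis and 9 of 14 hypoxia genes), beside 38.7% of all genes. SSM2 replicate 3 was the highest SSM2 array for 22 of 32 (14 and 8), beside 36.7% of all genes, and its median deviation from the line mean was 0.41 over the 32 genes and 0.02 over all genes. In NDL, replicate 1 was highest for 17 of 32, beside 22.7% of all genes, and the median deviations of the NDL arrays over the 32 genes lay between -0.06 and 0.07. Glycolysis genes averaged 10.32, 10.29 and 10.21 in the NDL arrays, 10.34, 10.28 and 10.64 in Met1 and 9.68, 9.74 and 10.25 in SSM2.

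**Figure D4:**
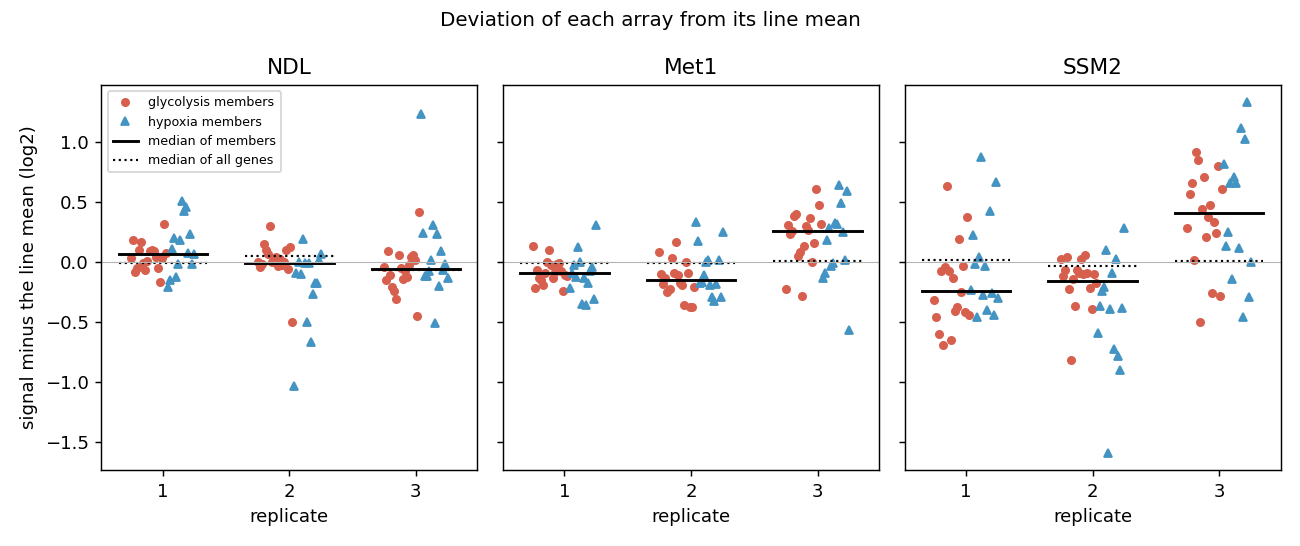
Signal of each array minus the mean of its line (vertical axis, log2) for the 32 genes, by replicate (horizontal axis) in NDL, Met1 and SSM2. Solid lines are medians over the 32 genes and dotted lines medians over all genes. The medians of the genes stand at 0.26 in Met1 replicate 3 and 0.41 in SSM2 replicate 3, where all genes stand at 0.01 and 0.02.

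Marker lists of other cell types moved with the lines and with these arrays. All 6 epithelial markers were higher in NDL than in Met1 and lower in Met1 than in SSM2. Their mean was 10.92 to 10.95 on NDL arrays, 6.29 to 8.09 on Met1 arrays and 11.02 to 11.48 on SSM2 arrays. All 6 macrophage markers were lower in NDL than in Met1, 1 was lower in NDL than in SSM2 and 3 were higher in Met1 than in SSM2. Their mean was 8.28 to 8.97 on NDL arrays, 10.11 to 10.28 on Met1 arrays and 8.50 to 9.89 on SSM2 arrays. The endothelial mean was 6.91 to 7.06 on NDL arrays, 6.96 to 7.26 on Met1 arrays and 7.16 to 8.01 on SSM2 arrays, and of 6 genes Pecam1 and Emcn were lower in NDL than in SSM2. The fibroblast mean was 8.80 to 9.19 on NDL arrays, 7.76 to 8.71 on Met1 arrays and 9.002 to 10.73 on SSM2 arrays. Of 6 fibroblast genes, 2 were higher and 1 lower in NDL than in Met1, 1 was lower in NDL than in SSM2, and 1 was higher and 2 lower in Met1 than in SSM2. SSM2 replicate 3 held the lowest SSM2 means of the macrophage (8.50), endothelial (7.16), fibroblast (9.002), neutrophil (4.95) and adipocyte (5.66) lists and the highest epithelial mean (11.48). Met1 replicate 3 held the lowest epithelial mean (6.29). No gene of the neutrophil (5 genes), adipocyte (5), skeletal muscle (5) or erythroid (2 of 5 measured) lists passed between any lines. The neutrophil mean was 4.76 to 5.42 on NDL arrays, 5.49 to 5.57 on Met1 arrays and 4.95 to 7.32 on SSM2 arrays. For the adipocyte list it was 5.99 to 7.09, 5.54 to 6.30 and 5.66 to 7.71. With such a spread in SSM2, the lack of calls does not show equal levels. In such bulk samples fewer cells of a type and less RNA per cell cannot be told apart, and the part of these cells in the differences was not tested.

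Other genes of the same pathways were counted as well. Of 29 measured genes of glycolysis and lactate metabolism outside the 18, 4 were higher and 7 lower in NDL than in Met1. Against SSM2, 6 were higher and 4 lower in NDL, and 2 were higher and 1 lower in Met1. In the same order these were 37.9%, 34.5% and 10.3% of the 29, beside 19.1%, 16.9% and 11.8% of all genes. Pdk2, a pyruvate dehydrogenase kinase like Pdk1, averaged 8.86 ± 0.03 in NDL, 7.10 ± 0.16 in Met1 and 7.08 ± 0.20 in SSM2. It was higher in NDL than in Met1 (1.76, adjusted p = 8.23e-05) and SSM2 (1.78, adjusted p = 7.95e-05). Pdp1, the phosphatase that opposes these kinases, was lower in NDL than in Met1 (-1.35, adjusted p = 0.0142) and SSM2 (-1.79, adjusted p = 0.00499). Slc16a1, the lactate transporter MCT1, averaged 8.74 ± 0.25 in NDL, 10.59 ± 0.12 in Met1 and 9.62 ± 0.52 in SSM2 and was lower in NDL than in both (-1.85, adjusted p = 0.00139, and -0.88, adjusted p = 0.0434), and higher in Met1 than in SSM2 (0.97, adjusted p = 0.0372). Ldhd, which oxidises D-lactate, was higher in NDL than in Met1 (3.72, adjusted p = 0.00121) and SSM2 (2.07, adjusted p = 0.0218). Ldhb, the lactate dehydrogenase isoform typical of heart, was higher in NDL than in Met1 (1.4, adjusted p = 0.0105) and SSM2 (3.58, adjusted p = 0.000126), and higher in Met1 than in SSM2 (2.18, adjusted p = 0.00197). These values come from a feature whose neighbours belong mostly to genes of chromosome 19 while Ldhb lies on chromosome 6.

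Of 43 measured hypoxia genes outside the 14, 5 were higher and 8 lower in NDL than in Met1. Against SSM2, 6 were higher and 2 lower in NDL, and 8 were higher and 5 lower in Met1. In the same order these were 30.2%, 18.6% and 30.2% of the 43, beside 19.1%, 16.9% and 11.8% of all genes. Stc1, a secreted glycoprotein, averaged 5.50 ± 0.15 in NDL, 7.50 ± 0.10 in Met1 and 5.66 ± 0.14 in SSM2 and was lower in NDL than in Met1 (-2.0, adjusted p = 3.41e-05). Met1 also exceeded SSM2 (1.84, adjusted p = 7.99e-05). The carbonic anhydrase Car9, a common hypoxia marker, was also lower in NDL than in Met1 (7.12 ± 0.01 against 8.87 ± 0.59; -1.75, adjusted p = 0.00239) and higher in Met1 than in SSM2 (2.78, adjusted p = 0.00039), where it averaged 6.09 ± 0.20. Against SSM2, Car9 was higher in NDL (1.03, adjusted p = 0.0299). Plod1, a collagen lysyl hydroxylase, averaged 9.83 ± 0.04 in NDL, 10.78 ± 0.08 in Met1 and 8.14 ± 0.32 in SSM2, and all 3 comparisons passed. Flt1, a receptor for VEGF, was lower in NDL than in Met1 (-1.90, adjusted p = 0.000301), and Met1 exceeded SSM2 (2.01, adjusted p = 0.000345). Of the 5 genes lower in Met1 than in SSM2, the largest difference was that of Bhlhe41 (-1.83, adjusted p = 0.00211). Angptl4 (-1.46), Mxi1 (-1.09) and Hif1an (-0.99) followed. Higher in NDL than in both other lines were Cited2, Zfp395 and Arnt2. For Cited2, which restrains HIF activity, NDL exceeded Met1 by 1.82 (adjusted p = 0.000561) and SSM2 by 2.17 (adjusted p = 0.000255). For Zfp395 the differences were 1.05 (adjusted p = 0.000976) and 1.80 (adjusted p = 7.99e-05). For Arnt2, a partner subunit of HIF, they were 1.45 (adjusted p = 0.000177) and 1.62 (adjusted p = 0.000107).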

How the data were processed

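Total RNA (100 ng per sample, isolated with a miRNeasy FFPE kit per the labels' protocols) was amplified, labelled and hybridised to 1 array per sample. The authors deposited log2 values from RMA, with oligo 1.40.2 named in the submitters' processing notes. RMA includes background correction, quantile normalisation and a summary over probes, so shifts common to all genes are removed. Genome build and scan dates: not given in the sources used here.

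Of 35556 features, 21789 carried 1 symbol in the platform annotation, 1621 several and 12146 none. Names were updated through gene IDs of GRCm38.p6 (21698 features matched, 91 kept their symbol). In all, 19938 genes were fitted, without a signal filter. The deposited values were fitted in limma 3.58.1 (R 4.3.3) with lmFit and eBayes on all 9 arrays (6 residual and 2.42 prior degrees of freedom), and errors of differences are the model's standard errors. Groups and replicate numbers came from the sample titles. The genes and lists were chosen with earlier results of these data known. Values on every array are given for genes called in both comparisons of 1 line and for Vegfa, Egln3, P4ha2, Hif1a and Ldha, and up to 4 called genes with the largest differences in each direction and comparison are named from the other lists. Epithelial and other marker lists are given whole. Same-numbered arrays of different lines deviated together in some pairs and against each other in others (r across genes from -0.347 to 0.288). The main fit did not pair samples by number, and these values cannot show whether a number marks a shared batch. The procedure was tested on simulated data. Figures were drawn with matplotlib 3.10.9.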

Additional observations from a re-analysis of the deposited data

How the results depend on the processing

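Alternatives were a filter on genes above the 25th percentile of signal, array weights, cyclic loess, the replicate number as a block, robust fitting with an intensity trend, features averaged per gene, equal medians, only the arrays of the 2 lines compared, each array left out in turn, and NDL replicate 3 as the lone NDL array (assumed to vary like the other lines). The feature placed with its gene's chromosome, and leaving out the third arrays of Met1 and SSM2, were chosen after the data were seen. No called difference changed sign in any of these 20 fits, and 9 of 21 called differences passed in all of them. With equal medians the median difference of all genes between NDL and SSM2 was 0.13.

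With 1 array left out, glycolysis genes higher in NDL than in Met1 numbered 1 to 2 and lower ones 1 to 4. Higher in NDL than in SSM2 were 3 to 6, and higher in Met1 than in SSM2 were 2 to 9. Hypoxia genes higher in NDL than in Met1 numbered 1 to 2 and lower ones 3 to 4. Lower in NDL than in SSM2 were 1 to 3, higher in Met1 than in SSM2 0 to 2, and lower there 0 to 1. All genes called numbered 2371 to 6631, 1873 to 7018 and 1360 to 2754 in the 3 comparisons, against 3814, 3364 and 2356 with all arrays. Both 6631 and 7018 were reached without NDL replicate 3.

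With only the arrays of the 2 lines compared, 3 glycolysis genes were higher and 4 lower in NDL than in Met1, 3 were higher in NDL than in SSM2 and 2 in Met1 than in SSM2. In the same fits NDL exceeded Met1 for 2 hypoxia genes, and 1755 genes were called between NDL and SSM2. With NDL replicate 3 as the lone NDL array, 0 glycolysis genes were lower in NDL than in Met1, 3 were higher in NDL than in SSM2 and 2 in Met1 than in SSM2. Of hypoxia genes, 1 was then lower in NDL than in Met1, and 0 were higher and 1 lower in NDL than in SSM2, with 1702 and 1190 genes called against Met1 and SSM2. Fewer arrays were fitted there. With cyclic loess 1 glycolysis gene was lower in NDL than in Met1 and 2 were higher in Met1 than in SSM2. With array weights 0 glycolysis genes were lower in NDL than in Met1, 3 hypoxia genes were higher in Met1 than in SSM2, and 4007 genes were called between Met1 and SSM2, and the estimate of the weights stopped before it converged. With the replicate number as a block, NDL was below SSM2 for 4 hypoxia genes and 1 was higher in Met1 than in SSM2. Without the third arrays of Met1 and SSM2, NDL exceeded Met1 for 2 glycolysis genes and 1 hypoxia gene was higher in Met1 than in SSM2. The cause of these changes was not tested.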
